A study of Homo sapiens with 12 samples.

Results

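The transcriptome of AGS cells that overexpress ONECUT2 was compared with that of control AGS cells across 11675 genes. AGS is an established human gastric adenocarcinoma line. The genes were the rows of the deposited table that carry a gene symbol and average at least 1 CPM (a gene's reads divided by the library size and scaled up by a fixed factor) over both AGS libraries. They make up 11675 of 13109 rows, beside 1416 genes under that level and 18 rows that carry a date in place of a symbol.

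The series holds RNA sequencing and ONECUT2 chromatin immunoprecipitation of AGS and MKN74, another gastric cancer line, each as a control and with ONECUT2 overexpression. Here the AGS control library and the AGS ONECUT2 overexpression library are described, and the MKN74 libraries are used only for values side by side. The way ONECUT2 was overexpressed, any vector in the control cells, the use of 1 clone or a pool and the time in culture were all left unstated, not given in the sources used here. With 1 library on each side there is no replicate and no test, so every value describes these libraries, and an effect of ONECUT2 cannot be told apart from any other difference between them.

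ONECUT2 is a transcription factor with a cut domain and a homeodomain, known for its part in liver, pancreas and endocrine development and studied as a driver of dedifferentiation in several carcinomas. The study's title names ACSL5, which activates long-chain fatty acids by joining them to coenzyme A. Many of the genes described below are known targets of ATF4, a transcription factor made when phosphorylation of eIF2alpha slows general translation during amino acid shortage or endoplasmic reticulum stress, and one that switches on genes for amino acid synthesis, uptake and tRNA charging.

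Changes are given as log2(CPM + 1) in the overexpression library minus the same in the control, a scale that shrinks the differences of genes at low level. Ratios are of CPM, and their intervals cover counting error at 95% only. A gene is counted as higher or lower when its change is at least 2-fold on that scale, a size rule and not a test. CPM is not divided by gene length, so levels are compared only within a gene. Where a gene is followed by a pair of levels, the first is the control library and the last the overexpression library.

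The libraries gave 36132888 reads in the control and 36492454 in the overexpression library over the listed rows. These were 88.1% and 84.4% of the library size that the deposited scaling implies, so the share outside the listed rows was 11.9% and 15.6%. Epithelial genes of the line were present on both sides, with EPCAM at 508 to 566 CPM, KRT19 at 683 to 725 CPM and CDH1, the E-cadherin gene, at 7.63 to 8.74 CPM. Of 18 immune cell markers 3 were listed, LYZ, CSF1R and CD68, and the others, PTPRC among them, were not analysed here. Of 17 fibroblast and endothelial markers 4 were listed, and of 20 neuroendocrine and neuronal genes 6.

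At least 2-fold higher in the overexpression library were 489 of 11675 genes, or 4.19%, and at least 2-fold lower were 85, or 0.728%, so 574 genes (4.92%) were past the limit in either direction. The median change was -0.0034, 77.0% of the genes lay within 0.5 of 0, 50.3% lay below 0 and 49.7% above it. Higher genes started from low levels, with a median of 5.05 CPM in the control and 16.05 CPM with overexpression. Of them 103 were under 1 CPM in the control. The filter averages both libraries, so these 103 passed it only through their overexpression level. Lower genes had medians of 27.6 and 11.5 CPM. Of these, 16 were under 1 CPM with overexpression and passed only through their control level. Counts of higher and lower genes in the lists below are to be read beside the shares of 4.19% and 0.728%, and beside those of their level class.

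The typical change also depended on level. Genes averaging 1 to 5 CPM had a median change of 0.19, those from 5 to 20 CPM 0.094, those from 20 to 100 CPM -0.046 and those of 100 CPM or more -0.14. In the most abundant class 63.9% of 1989 genes lay below 0. From the lowest class to the highest, 9.81%, 5.74%, 2.18% and 2.82% of genes were higher. In the same order 1.41%, 0.695%, 0.582% and 0.603% were lower. Each list below is to be read beside the values of the level class that most of its genes fall in. A reference list of 31 housekeeping genes also leaned lower, with 23 below 0 and a median of -0.16. Its summed level went from 21188 to 16892 CPM, and lists that lean lower are to be read beside it too. PSMB2 is in both that list and the proteasome list.

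**Figure D1:**
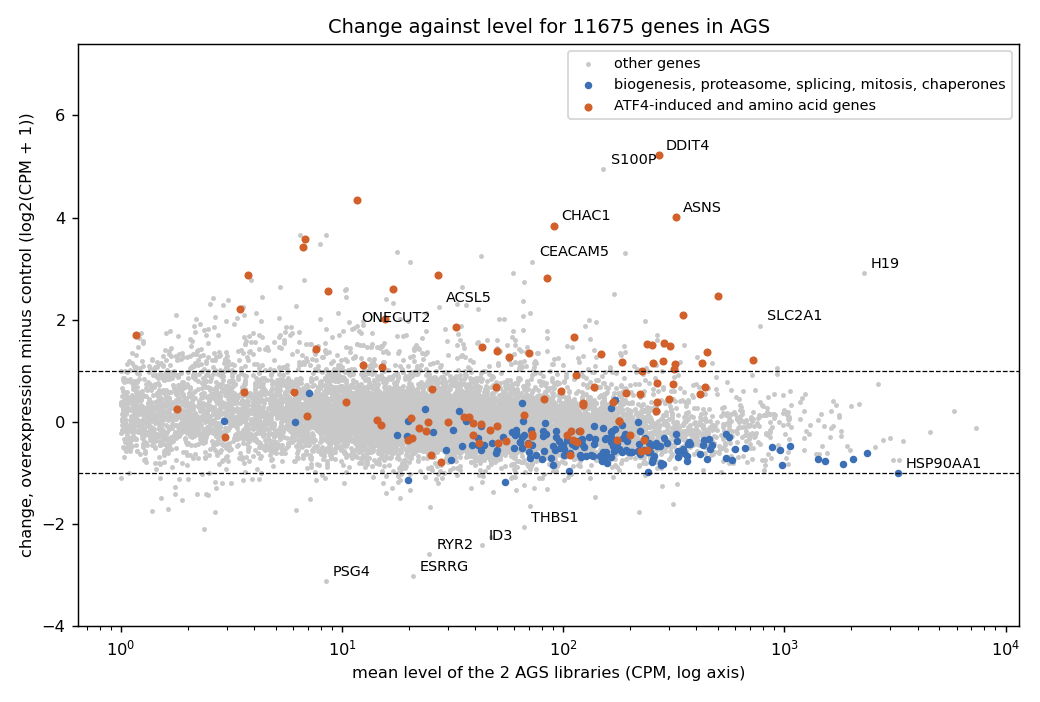
Change (log2(CPM + 1), overexpression minus control) against the mean level of both AGS libraries (CPM, log axis), each point 1 gene, with dashed lines at 2-fold. Genes of the ATF4 and amino acid lists (orange) reach up to 5.22 at DDIT4, while genes of the ribosome biogenesis, proteasome, splicing, mitosis and chaperone lists (blue) lie mostly between 0 and -1.

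ONECUT2 itself went from 4.39 to 18.3 CPM, on 180 and 793 reads. Its change was 1.84, a ratio of 4.18 (interval 3.55 to 4.94). The library labelled as overexpression therefore carries more ONECUT2 reads, and whether these come from the introduced or the resident gene cannot be told apart. ACSL5 went from 8.92 to 45.9 CPM, which is a ratio of 5.14 (4.596 to 5.76) and 2.24 as a change.

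Promoter sequence is shown for the higher genes with a C/EBP-ATF response element, since DDIT4, ASNS and CHAC1, genes known to respond to ATF4, were among the largest increases. That element, TGATGNAA on either strand, is known to bind ATF4 together with a C/EBP partner. RefSeq promoters of build GRCh38.p14, each spanning 250 bases before to 50 after the gene's start, were matched to 9409 of 11675 genes. The element was present in 1.55% of the 9409, in 17 of 357 higher genes (4.76%) and in 2 of 71 lower genes (2.82%). The form TGATGCAA was in 0.478% of all, 3.08% of higher and 0 of 71 lower genes. The 6 stretches are a selection of higher genes with a match wholly before the start, read on the gene's strand with the match in capitals. FGF21, FUT1, IL20RB, PRSS1 and SYTL1 also have a match before the start. CARS and MARS have one that spans it, and BCL6, LINC01133, SLC3A2 and SLC7A1 one after it. These other higher genes are not printed. The 6 printed stretches lie at chr16:70289640-70289739 (minus strand, AARS, listed as AARS1 in RefSeq), chr7:97872423-97872522 (minus, ASNS), chr15:40953221-40953315 (plus, CHAC1), chr16:56931920-56932019 (plus, HERPUD1), chr19:50969701-50969800 (minus, KLK6) and chr4:6693709-6693808 (plus, S100P).
AARS: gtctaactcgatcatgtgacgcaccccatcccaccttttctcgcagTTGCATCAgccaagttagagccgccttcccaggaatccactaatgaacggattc
ASNS: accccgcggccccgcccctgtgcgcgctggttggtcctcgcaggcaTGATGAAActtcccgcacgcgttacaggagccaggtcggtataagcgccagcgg
CHAC1: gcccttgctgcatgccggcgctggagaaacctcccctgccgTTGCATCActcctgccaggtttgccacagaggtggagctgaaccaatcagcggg
HERPUD1: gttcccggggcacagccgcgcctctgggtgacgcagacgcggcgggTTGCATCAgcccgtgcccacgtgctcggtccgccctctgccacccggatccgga
KLK6: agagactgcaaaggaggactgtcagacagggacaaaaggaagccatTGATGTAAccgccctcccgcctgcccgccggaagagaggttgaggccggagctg
S100P: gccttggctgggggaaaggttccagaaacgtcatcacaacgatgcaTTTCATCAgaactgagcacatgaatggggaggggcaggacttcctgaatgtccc
The first base of the match stood 187 bases before the start in AARS, 68 in ASNS, 209 in CHAC1, 176 in HERPUD1, 163 in KLK6 and 123 in S100P. AARS, CHAC1 and HERPUD1 hold the same letters, TTGCATCA, which read TGATGCAA on the other strand. ASNS and KLK6 hold the element on the gene's own strand, and S100P on the other. Among genes of the stress and amino acid lists with a promoter, 8 of 29 that were higher held TGATGNAA (27.59%), as did 8 of 47 that were not (17.02%). The AP-1 site TGAGTCA was in 2.98% of all promoters and in 24 of 357 higher genes (6.72%) and 4 of 71 lower genes (5.63%). Of the core forms of the known ONECUT family site, ATTGAT was in 2.92% of all promoters, 13 of the 357 (3.64%) and 5 of the 71 (7.04%). ATCGAT was in 0.818% of all, 1 of the 357 (0.28%) and 0 of the 71. A match is a description of letters in a window, not evidence of a bound site.

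Most genes of the list that ATF4 is known to induce were higher. Of 23 measured, 16 were at least 2-fold higher (69.6%, against 4.19% of all genes) and 0 lower. All 23 lay above 0, and the median change was 1.32 against -0.0034 over all genes. This list, like the others, was chosen with earlier results of these data known, so these values are description only. Summed over the list, the level went from 1263 to 3291 CPM. DDIT4, which restrains mTORC1 signalling under stress, went from 13.2 to 528 CPM, a ratio of 40.1 (interval 36.8 to 43.7). ATF4 itself went from 262 to 582 CPM, which is 1.15 as a change. Its partners and antagonists were higher as well. CEBPB, a C/EBP factor, went from 5.66 to 25.7 CPM, CEBPG, its heterodimer partner, from 84.1 to 212 CPM and DDIT3, the CHOP factor of prolonged stress, from 9.36 to 20.8 CPM. JDP2, an AP-1 repressor, went from 0.585 to 6.34 CPM.

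Secreted products of the same list started near 0. INHBE, a subunit of the activin family, went from 0.195 to 23.2 CPM, and ADM2, the peptide intermedin, from 0.146 to 7.38 CPM. GDF15, a stress cytokine that acts on appetite, began higher and went from 132 to 562 CPM. FGF21, a metabolic hormone, had 1 read in the control and 100 with overexpression (0.0244 and 2.31 CPM), a ratio of 94.8 with an interval of 16.6 to 3783. CHAC1, which degrades glutathione, went from 10.9 to 170.3 CPM, a ratio of 15.6. NUPR1, a small chromatin-binding stress protein, went from 0.293 to 12.9 CPM. SESN2, a leucine sensor that inhibits mTORC1, went from 22.2 to 63.5 CPM. PPP1R15A, which recruits the phosphatase that ends the response, was lowest of the list at 0.01, going from 178 to 179 CPM.

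The list of eIF2alpha kinases and translation control did not share this pattern. Of its 19 measured genes 1 was higher and 0 lower, with a median of -0.28. The higher one was EIF4EBP1, the repressor of cap-dependent initiation, at 20.7 to 111 CPM. EIF2AK2, the double-stranded RNA kinase PKR, went from 86.7 to 53.6 CPM and EIF4G1, the initiation scaffold, from 702 to 440.0 CPM.

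Amino acid synthesis was higher at specific steps. ASNS, which makes asparagine, went from 37.04 to 609.7 CPM, a ratio of 16.5 (interval 15.6 to 17.3). In the list of asparagine, arginine, proline and branched-chain enzymes 4 of 21 were higher and 0 lower, with a median of 0.32. ASS1, which makes argininosuccinate, went from 0.195 to 13.4 CPM, CTH, which makes cysteine from cystathionine, from 4.07 to 29.9 CPM, and PRODH, the proline dehydrogenase, from 3.68 to 11.6 CPM. PYCR1, which makes proline, stayed under the limit at 79.3 to 149.9 CPM, a change of 0.91. Among 14 serine, glycine and one-carbon enzymes 4 were higher and 0 lower, with a median of 0.025 that became -0.010 with quantile normalization. The 4 were PSAT1 (152 to 845 CPM) and PSPH (27.2 to 72.7 CPM) of serine synthesis, and SHMT2 (157 to 350.1 CPM) and MTHFD2 (160.2 to 450.1 CPM), which pass serine's carbon to folate in mitochondria. TYMS, the cytosolic and nuclear user of folate in thymidylate synthesis, went the other way, from 35.9 to 20.3 CPM. PHGDH, the first enzyme of serine synthesis, averaged under 1 CPM and is not among the 14. It was at 0.146 to 0.532 CPM, on 6 and 23 reads.

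Uptake and tRNA charging followed. Of 21 amino acid transporters 8 were higher and 0 lower (median 0.45). SLC7A11, the cystine transporter, went from 20.2 to 148 CPM, SLC6A9, a glycine transporter, from 5.73 to 48.7 CPM and SLC43A1, a carrier of large neutral amino acids, from 1.804 to 15.5 CPM. SLC7A5 (248 to 643 CPM) and its heavy chain SLC3A2 (206 to 424 CPM), which exchange leucine for glutamine, were both past the limit. SLC1A5, the glutamine transporter, went from 435 to 1012 CPM and SLC1A4, for alanine, serine and cysteine, from 13.7 to 51.9 CPM. SLC7A1, for cationic amino acids, was at 113 to 257 CPM.

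Of 22 cytosolic aminoacyl-tRNA synthetases 6 were higher and 0 lower, with a median of 0.38 and changes from -0.65 at RARS to 1.67 at CARS. The 6 were CARS (53.03 to 171 CPM), GARS (145 to 425 CPM), WARS (124 to 357 CPM), SARS (132 to 374 CPM), MARS (171 to 391 CPM) and AARS (199 to 439.6 CPM). YARS sat just under the limit at 151 to 303 CPM. Of 17 mitochondrial synthetases 0 were higher and 0 lower, with a median of -0.24 and values up to 0.51 at PARS2. GARS also charges mitochondrial tRNA, so it belongs to both compartments.

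**Figure D2:**
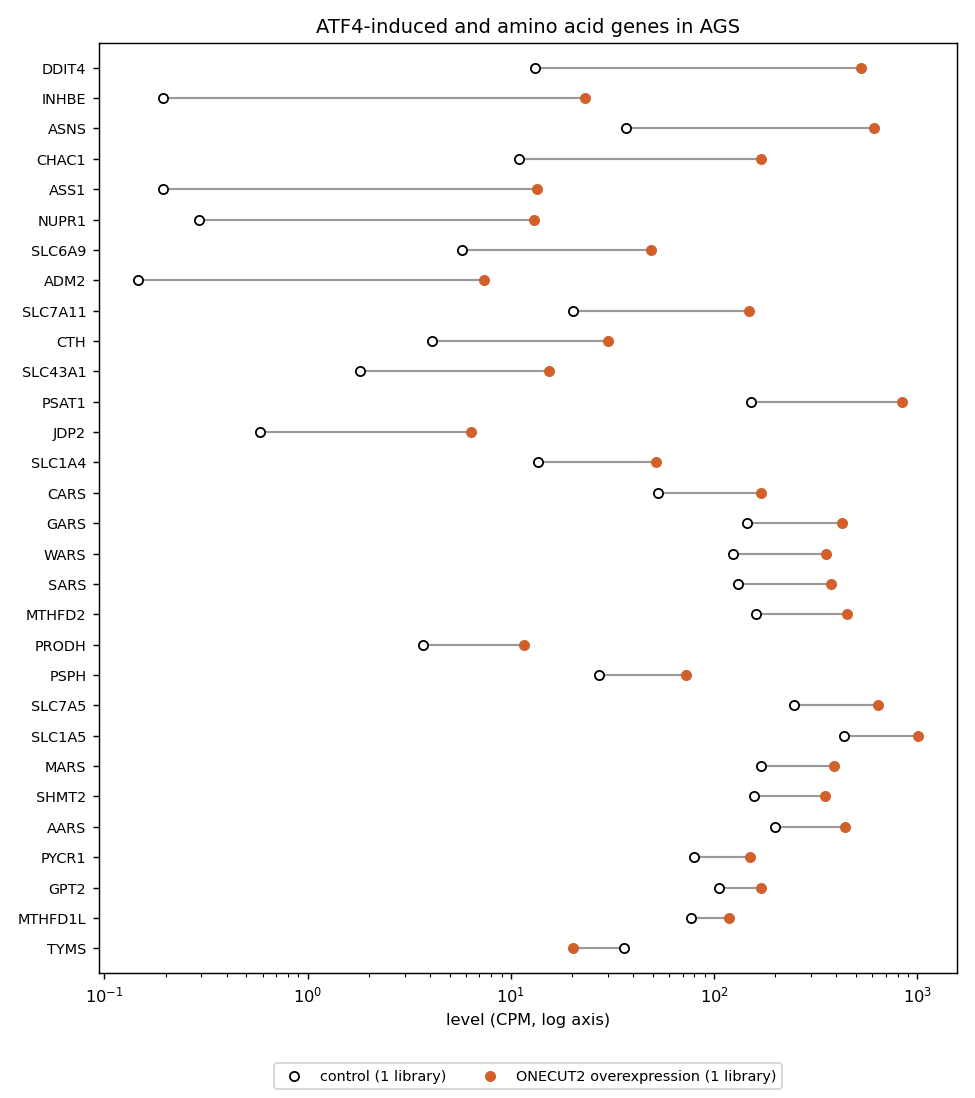
Levels (CPM, log axis) in the control library (open circle) and the ONECUT2 overexpression library (filled circle) for 30 ATF4-induced and amino acid genes, joined by a line. DDIT4 goes from 13.2 to 528 CPM, INHBE and ASS1 start below 1 CPM and lie farthest from their control level, and TYMS is the gene that lies lower with overexpression.

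The endoplasmic reticulum arm was mixed. Of 27 chaperones and redox enzymes 1 was higher, HERPUD1, a degradation component, at 28.9 to 103 CPM, and the median was -0.10. XBP1, the factor spliced in the unfolded protein response, went from 104 to 183 CPM and DNAJB9, its co-chaperone target, from 10.7 to 19.9 CPM, both under 2-fold. CALR, a lectin chaperone, went from 1683 to 1081 CPM. The summed list went from 13618 to 11290 CPM.

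SLC2A1, the main glucose transporter, went from 330.5 to 1222 CPM, a change of 1.88. TXNIP (49.8 to 289 CPM) and ARRDC4 (6.63 to 29.8 CPM), arrestins that limit glucose uptake, were higher as well. The glycolysis list that holds these genes leaned lower, with 18 of 26 below 0, a median of -0.39 and 1 gene past the limit downward, PFKFB3, a regulator of phosphofructokinase, at 109 to 50.6 CPM. LDHA, which makes lactate, went from 1065 to 551 CPM and GAPDH from 4117 to 2458 CPM. In the hypoxia list 3 of 15 were higher, VEGFA, the angiogenic factor (53.2 to 198 CPM), NDRG1 (10.2 to 37.6 CPM) and MXI1, a MYC antagonist (14.3 to 29.97 CPM). PCK2, the mitochondrial carboxykinase that ATF4 is known to induce, was the 1 higher gene of 22 in the citrate cycle list at 34.01 to 344 CPM, a ratio of 10.1, while CS, the citrate synthase, went from 308 to 185 CPM. Of 26 glutathione, thioredoxin and NRF2 genes 1 was higher, SLC7A11, with a median of -0.0015, and HMOX1 went from 41.6 to 24.05 CPM.

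Respiratory chain genes leaned lower without reaching 2-fold. Of 38 complex I subunits 31 lay below 0 with a median of -0.28, and of 34 subunits of complexes III, IV and V 31 did with a median of -0.49. NDUFB2 went from 24.2 to 12.8 CPM and COX6B1 from 341 to 201 CPM. Mitochondrial ribosomal proteins had 38 of 45 below 0, with a median of -0.27, and import and dynamics genes 22 of 31, with a median of -0.31. LONP1, a matrix protease, was the highest of the import list, at 146 to 233 CPM.

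The machinery that makes and folds protein leaned lower too. All genes of 100 CPM or more had a median of -0.14, those from 20 to 100 CPM -0.046 and the housekeeping list -0.16. The ribosome biogenesis list had a median level of 80.1 CPM, and the proteasome, splicing and heat shock lists were above 100 CPM. All 33 ribosome biogenesis factors lay below 0, with a median of -0.47, and UTP20, a processome component, was past the limit at 75.6 to 33.1 CPM. NCL, nucleolin, went from 1916 to 1129 CPM and NPM1, nucleophosmin, from 1766 to 1073 CPM. All 31 proteasome subunits lay below 0, with a median of -0.42, led by PSMB2 at 203 to 125 CPM. Of 40 splicing factors 37 lay below 0 with a median of -0.44, and SRSF3 went from 730.0 to 434 CPM.

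The list of heat shock proteins and chaperonins, mitochondrial HSPD1 and HSPE1 among them, had 2 of 26 lower and a median of -0.52. Its sum went from 16605 to 10118 CPM. HSP90AA1, the inducible HSP90, had the largest loss in CPM of all genes, 4358 to 2171 CPM, and sits at the 2-fold limit. HSPD1, the mitochondrial chaperonin, went from 1249 to 699 CPM and CCT2, a subunit of the cytosolic ring, from 458 to 269 CPM. HSPE1, the mitochondrial co-chaperonin, was the other called member, at 27.6 to 11.98 CPM. It may share reads with near-identical copies and is uncertain. In contrast, 47 cytosolic ribosomal proteins had a median of 0.038 with 27 above 0, and RPL13 went from 582 to 895 CPM. EEF1A1, an elongation factor, was at 5391 to 6266 CPM and TPT1, whose translation is controlled like that of ribosomal protein transcripts, at 1989 to 3305 CPM. RPS10, a ribosomal protein that the list of 47 does not hold, was lower, at 11.1 to 3.26 CPM, and is uncertain because its reads may be shared with overlapping or copied genes.

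**Figure D3:**
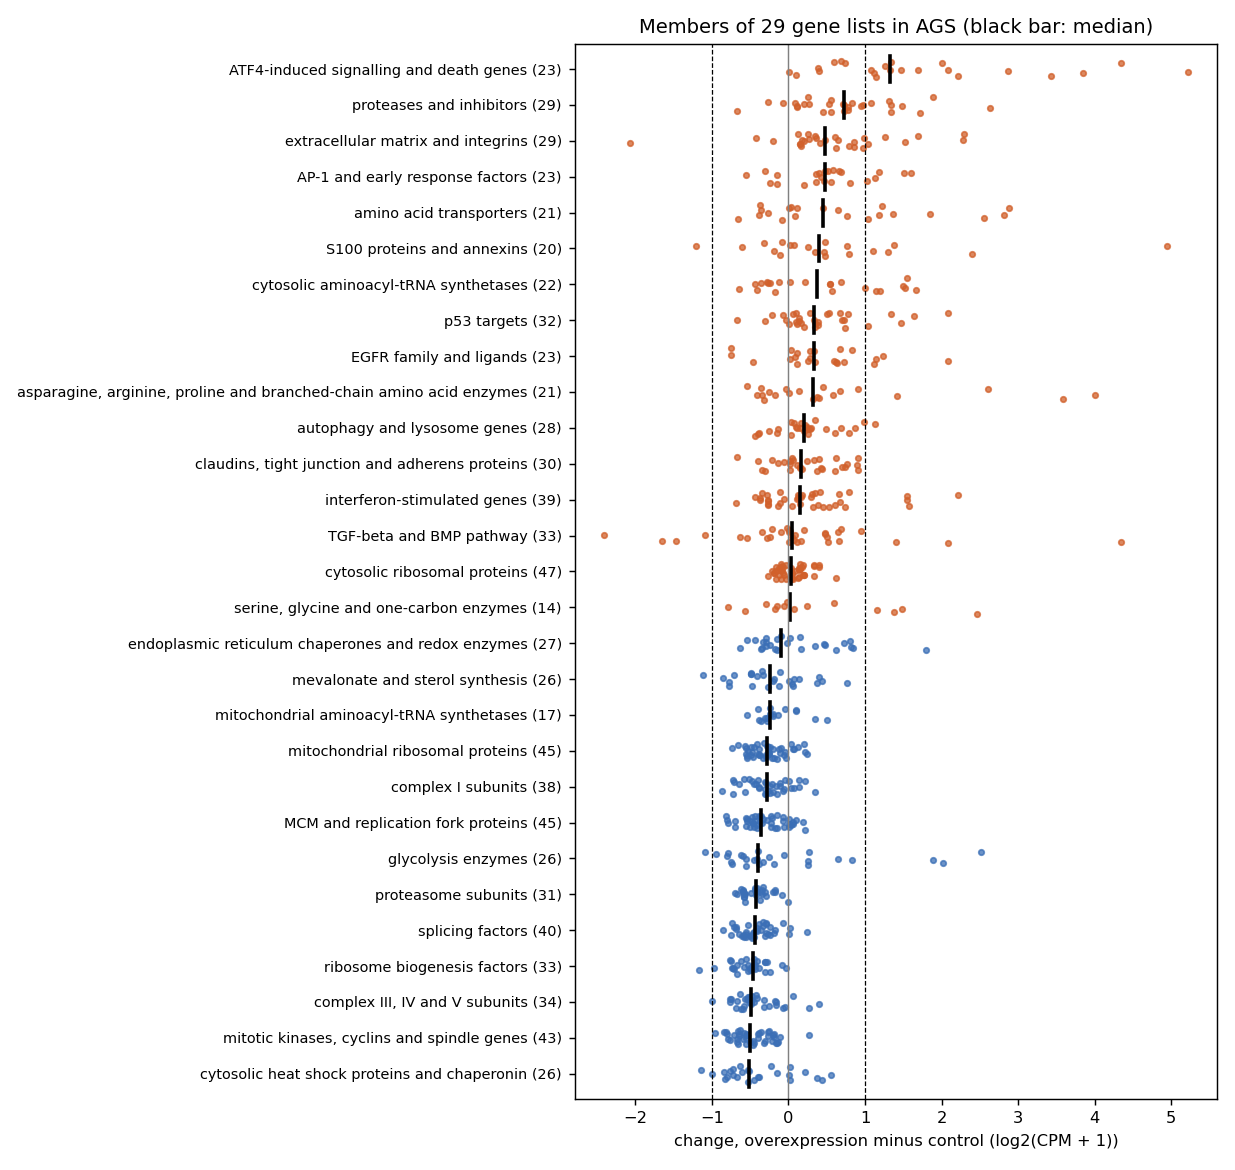
Changes (log2(CPM + 1), overexpression minus control) of the members of 29 gene lists in AGS, each point 1 gene, the black bar the list median and the number of members in parentheses, with dashed lines at 2-fold. The ATF4 list has a median of 1.32, and the chaperone, mitosis and ribosome biogenesis lists have medians of -0.52, -0.51 and -0.47.

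Cell cycle genes leaned lower, within 2-fold. Of 43 mitotic genes 42 lay below 0, with a median of -0.51 and a summed level of 6884 CPM in the control and 4846 CPM with overexpression. MKI67, the proliferation marker, went from 359 to 204 CPM, CENPE, a kinetochore motor, from 141 to 71.9 CPM and KIF20A, a cytokinesis motor, from 116 to 64.2 CPM. Replication genes had 36 of 45 below 0, with a median of -0.35, and RRM2, a subunit of ribonucleotide reductase, went from 292 to 166 CPM. In bulk RNA, fewer cells in cycle and less RNA per cycling cell cannot be told apart. Among 29 G1 regulators 3 were higher. CDKN1C, the p57 inhibitor, went from 1.56 to 7.08 CPM, BTG2, an antiproliferative factor, from 84.1 to 174 CPM, and MXI1 is given above. CDKN1A, the p21 inhibitor, was at 234 to 389.6 CPM, under the limit.

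Of 32 p53 targets 5 were higher and 0 lower, with a median of 0.34 and 27 above 0. They were GDF15, SESN2 and BTG2, given above, and the BH3-only death genes PMAIP1 (10.6 to 35.1 CPM) and BBC3 (39.03 to 101 CPM). GDF15, SESN2 and BBC3 are also in the ATF4 list. CASP6 went from 60.9 to 38.8 CPM. Of 32 genes of the BCL2 family, caspases and inhibitors 2 were higher, again PMAIP1 and BBC3, with a median of 0.043. That share of 6.25% is near the 4.19% of all genes, so it is no result about the family.

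Most lipid genes were within 2-fold, and the shares of higher genes were 4.76% in the fatty acid synthesis list and 3.45% in the oxidation list, near the 4.19% of all genes. Beside ACSL5, SLC27A1, a fatty acid transport protein with acyl-CoA synthetase activity, went from 4.71 to 20.1 CPM. DBI, the acyl-CoA binding protein, was lower at 181 to 83.5 CPM. The other 14 of 17 members of the acyl-CoA synthetase and uptake list were within 2-fold. PPARA, a nuclear receptor for fatty acids, was at 4.36 to 11.96 CPM, and its coactivator PPARGC1A at 14.1 to 6.64 CPM, just under the limit. FADS3, a desaturase family member, was the 1 higher of 21 fatty acid synthesis genes at 5.56 to 14.1 CPM, and FASN went from 342 to 247 CPM. Of 26 mevalonate and sterol genes 1 was lower, IDI1, an isoprenoid isomerase, at 36.6 to 16.3 CPM, with a median of -0.24. HMGCS1 went from 95.5 to 55.4 CPM, whereas SREBF2, the regulator of this pathway, was at 69.2 to 118 CPM. ACAT2, which joins acetyl-CoA units, was among the 25 largest decreases, at 29.5 to 11.1 CPM.

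Carcinoembryonic and secretory genes were among the largest differences. CEACAM5, carcinoembryonic antigen, went from 14.02 to 131 CPM, CEACAM6 from 94.2 to 372 CPM and CEACAM1 from 56.9 to 223 CPM. Pregnancy-specific glycoproteins of the same family lay the other way. PSG4 went from 15.9 to 0.948 CPM, a change of -3.12, PSG5 from 2.71 to 0.324 CPM and PSG1 from 6.12 to 2.29 CPM. These genes are near-identical copies, so reads may be split between them and single levels are uncertain. In all, 4 of 10 measured family members were higher, the fourth being CEACAM19 (0.561 to 2.29 CPM), and 3 lower.

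S100P, a calcium-binding protein often high in carcinomas, had the second largest increase, 8.63 to 295 CPM, a ratio of 34.2 (interval 30.8 to 38.1). S100A9, a calprotectin subunit, went from 0.293 to 5.78 CPM, S100A14 from 105 to 260.1 CPM and ANXA1, an annexin that dampens inflammation, from 28.4 to 75.4 CPM. ANXA10, a gastric annexin, was lower at 4.78 to 1.503 CPM. In the list of S100 proteins and annexins 5 of 20 were higher and 1 lower, with a median of 0.40.

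Gastric and intestinal products did not move as a block. REG3A (0.0975 to 12.8 CPM) and REG1A (25.7 to 116 CPM), secreted lectins that are close paralogs and therefore uncertain, were higher, as was LGALS4, a galectin, at 29.7 to 91.6 CPM. TFF1, the gastric trefoil peptide, went from 1.97 to 9.74 CPM. REG4 lay below at 234 to 121 CPM, within 2-fold. The list had 4 of 22 higher and 1 lower and a median of 0.060, or -0.10 with quantile normalization. Among 24 mucin and O-glycan genes 6 were higher and 2 lower. GCNT3, a core branching enzyme, went from 13.1 to 105 CPM, MUC20 from 1.97 to 9.02 CPM and FUT3, the Lewis fucosyltransferase, from 0.122 to 2.38 CPM, while GCNT4 went from 4.24 to 1.13 CPM and SPDEF, a secretory cell factor, from 2.41 to 0.601 CPM.

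In the list of keratins and desmosomal proteins 6 of 22 were higher and 0 lower, with a median of 0.26. KRT23 went from 0.463 to 15.4 CPM, a ratio of 33.1, and KRT17 from 74.8 to 200.3 CPM. KRT6A (1.56 to 6.52 CPM), KRT16 (0.3901 to 1.804 CPM), KRT81 (1.44 to 6.96 CPM) and KRT86 (0.561 to 2.405 CPM) were higher too, but have near-identical copies and are uncertain. KRT8, a simple keratin, was at 3337 to 2669.9 CPM and KRT18 at 886 to 760.1 CPM, changes of -0.32 and -0.22. Of 30 claudin, tight junction and adherens genes 0 were past 2-fold and 23 lay above 0 (median 0.16), led by CLDN7 at 229 to 432 CPM and TJP3 at 24.9 to 47.7 CPM.

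Proteases and their inhibitors leaned higher, with 8 of 29 higher, 0 lower and a median of 0.73. KLK8 (4.39 to 18.9 CPM) and KLK6 (42.6 to 109.9 CPM) are kallikreins, TMPRSS4 (42.9 to 110.4 CPM), HPN (7.41 to 22.4 CPM) and PRSS22 (17.5 to 38.1 CPM) are serine proteases, and SLPI, at 14.97 to 51.5 CPM, inhibits such enzymes in mucus. PLAUR, the urokinase receptor, went from 26.3 to 73.7 CPM.

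Matrix genes leaned higher with 1 large exception. In the list of extracellular matrix and integrins 26 of 29 lay above 0, 6 were higher and 1 lower, and the median was 0.48. ITGA3, a laminin-binding integrin, went from 125 to 408 CPM, LAMA5 and LAMB3, laminin chains, were at 237 to 569 CPM and 105 to 218 CPM, and COL17A1, a hemidesmosomal collagen, at 11.7 to 60.8 CPM. COL4A1, of basement membranes, went from 5.56 to 17.9 CPM. THBS1, thrombospondin, went from 107 to 24.9 CPM, a change of -2.07. In the mesenchymal list 4 of 15 were higher and 3 lower. CDH11 went from 1.15 to 7.47 CPM and AXL, a receptor tyrosine kinase, from 3.88 to 11.2 CPM, whereas DPYSL3, which binds cytoskeletal proteins, went from 339 to 99.3 CPM, MMP1, an interstitial collagenase, from 145 to 70.6 CPM and TGFBI from 3.97 to 0.879 CPM.

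**Figure D4:**
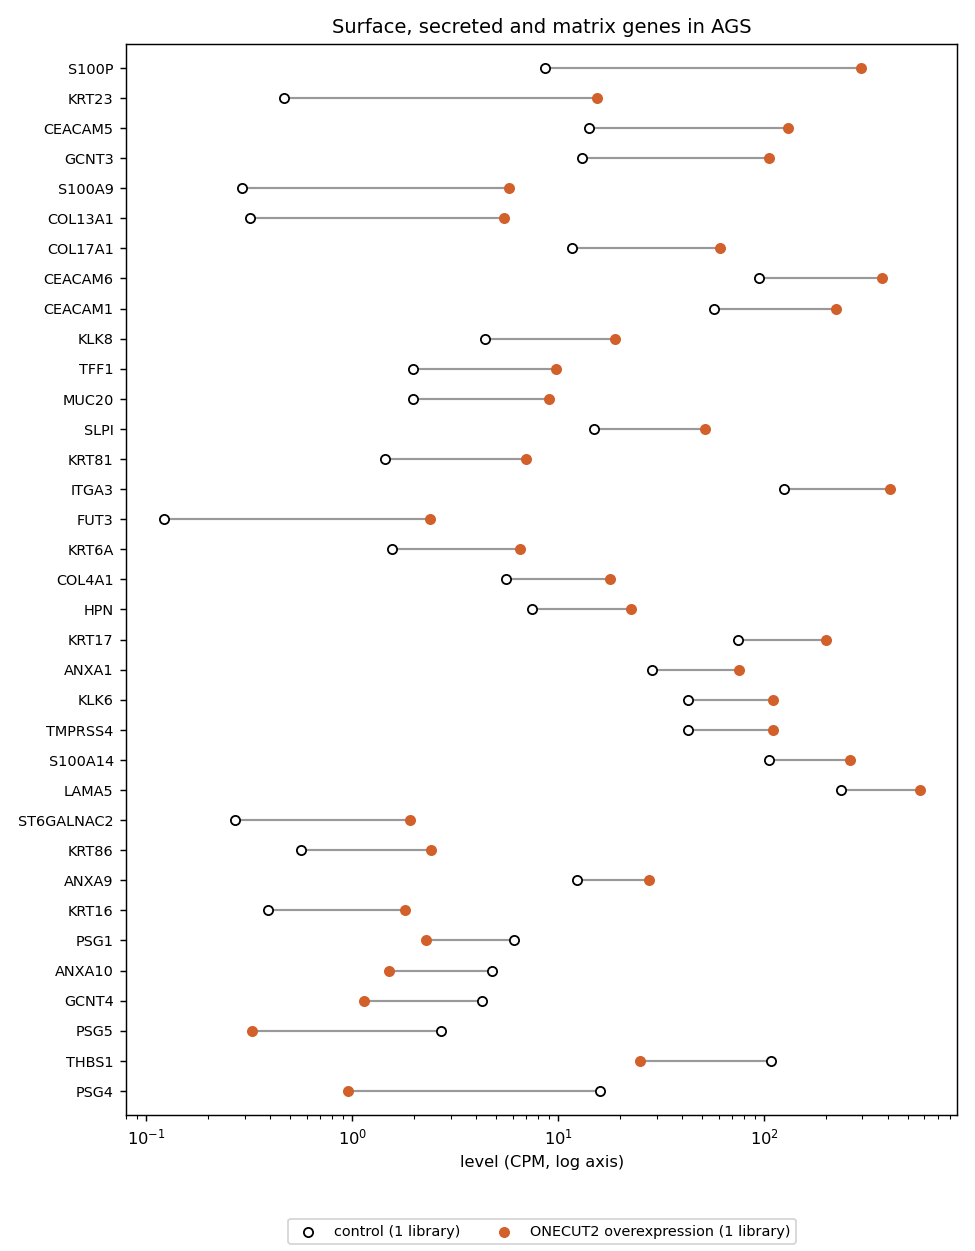
Levels (CPM, log axis) in the control library (open circle) and the ONECUT2 overexpression library (filled circle) for surface, secreted and matrix genes, joined by a line. S100P goes from 8.63 to 295 CPM at the top, and THBS1 and PSG4 at the bottom lie lower with overexpression.

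In the TGF-beta and BMP list 3 of 33 were higher and 4 lower, around a median of 0.052. The 3 inhibitors of basic helix-loop-helix factors that BMP signalling is known to induce lay lower together. ID3 went from 72.6 to 12.8 CPM, a change of -2.41, ID2 from 107 to 33.5 CPM and ID1 from 205 to 73.4 CPM. SKIL, a SMAD corepressor, was at 228 to 107 CPM. The higher ones were ligands, INHBE and GDF15, given above, and TGFB3 at 2.07 to 7.12 CPM. Of 21 YAP and TEAD targets 1 was higher, AXL, and 1 lower, THBS1, and CTGF was at 127 to 80.1 CPM. The share of higher targets, 4.76%, is near the 4.19% of all genes, so it is no result about the list.

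Among transcription factors, EHF, an epithelial ETS factor, went from 4.32 to 27.1 CPM, a change of 2.40. PROX1, a homeobox factor of endoderm and lymphatic cells, went from 5.53 to 17.7 CPM and HOXB9 from 18.5 to 52.4 CPM. KLF2 went from 5.78 to 21.6 CPM and KLF4, a factor of epithelial differentiation, was just under the limit at 28.7 to 58.2 CPM. ESRRG, an orphan nuclear receptor, had the second largest decrease, 37.96 to 3.79 CPM, a change of -3.02. MECOM, a zinc finger factor, was lower at 93.9 to 39.5 CPM. In the list of ONECUT and endoderm factors 3 of 22 were higher, ONECUT2, EHF and PROX1, with 0 lower, and the median of 0.090 became -0.093 with quantile normalization.

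Growth factor and early response genes leaned higher. Of 23 genes of the EGFR and growth factor list 4 were higher, EGFR (40.3 to 88.8 CPM), its ligand HBEGF (13.5 to 32.9 CPM), its feedback inhibitor ERRFI1 (294 to 651 CPM) and IGFBP6, which binds insulin-like growth factors (24.5 to 107 CPM). Of 23 ERK feedback genes 2 were higher, DUSP6, an ERK phosphatase (58.2 to 162 CPM), and PHLDA1 (101 to 259 CPM), and DUSP4 lay below at 571 to 361 CPM. Of 23 AP-1 and early response genes 5 were higher and 18 lay above 0, with FOS at 112 to 256 CPM, JUND at 41.3 to 85.4 CPM, IER5 at 56.1 to 124 CPM, IER5L at 16.5 to 51.9 CPM and TSC22D1 at 147 to 420.0 CPM. In the WNT list 1 of 27 was higher, SP5, a target of beta-catenin, at 44.6 to 104 CPM. That share of 3.70% is near the 4.19% of all genes, so it is no result about the pathway. LGR5, the stem cell receptor, was at 347 to 186 CPM. Of 21 NOTCH and hedgehog genes 3 were higher, NOTCH3 (3.68 to 11.2 CPM), its ligand JAG2 (1.22 to 3.45 CPM) and GLI1 (0.536 to 2.17 CPM), and IHH was lower (3.121 to 0.902 CPM).

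Most immune-type genes were within 2-fold, with shares of higher genes above the 4.19% of all genes. Of 39 interferon-stimulated genes 4 were higher (10.3%) and 0 lower, with a median of 0.15. They were IFIT2 (13.97 to 68.2 CPM), OASL (20.3 to 61.6 CPM), ISG20 (2.71 to 9.99 CPM) and IFITM2 (7.36 to 23.5 CPM, with close paralogs). Of 19 class I antigen presentation genes 2 were higher (10.5%), and of 35 cytokine, chemokine and NF-kB genes 4 (11.4%), with 0 lower in each. HLA-F, a class I heavy chain, was at 13.6 to 30.1 CPM, uncertain because class I genes share sequence. CFB, complement factor B, went from 10.4 to 55.5 CPM, PTGS2, a prostaglandin synthase, from 7.31 to 17.5 CPM and CCL5, a chemokine, from 0.561 to 2.82 CPM. PRF1, the perforin of cytotoxic lymphocytes, went from 2.39 to 33.1 CPM. The listed immune markers LYZ (7661 to 7066 CPM), CSF1R (2.76 to 1.97 CPM) and CD68 (6.14 to 11.2 CPM) were within 2-fold, the other 15 markers were not analysed here, and the part of other cells in these values was not tested.

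Transport and drug-handling genes held several single large differences. HPGD, which inactivates prostaglandins, went from 20.8 to 86.5 CPM, ABCC3, an organic anion exporter, from 37.5 to 131 CPM, GSTM4 from 64.3 to 199 CPM and ALDH3A1, an aldehyde dehydrogenase, from 36.2 to 101 CPM. In that list 6 of 26 were higher and 0 lower, with a median of 0.42. Ion channels and exchangers split, 5 of 38 higher and 4 lower. KCNN4, a calcium-activated potassium channel, went from 4.998 to 29.1 CPM and KCNQ1, a potassium channel of gastric acid secretion, from 5.803 to 18.3 CPM. RYR2, a calcium release channel, went from 43.3 to 6.36 CPM, and the anion carriers SLC4A4 and SLC26A2 were lower at 23.2 to 8.26 CPM and 87.9 to 34.5 CPM. Iron genes included TFRC, the transferrin receptor, lower at 393 to 164 CPM, and FTH1, a ferritin chain with many pseudogenes, at 637 to 1216 CPM.

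Genes outside the lists were most of the called ones, 345 of 489 higher and 55 of 85 lower. APOA2, an apolipoprotein, went from 7.34 to 77.7 CPM, PADI1, which citrullinates proteins, from 3.36 to 37.1 CPM and KIF21B, a kinesin, from 16.7 to 117 CPM. TGM2, a transglutaminase, went from 8.997 to 60.95 CPM and ALOX5, the leukotriene-forming lipoxygenase, from 2.22 to 18.6 CPM. FPR3, a formyl peptide receptor, was at 183 to 523 CPM. Among lower genes SNCAIP, which binds synuclein, was at 78.5 to 15.7 CPM, PCDH7, a protocadherin, at 473 to 155 CPM, NDRG2 at 38.6 to 11.5 CPM and FGB, a fibrinogen chain, at 69.9 to 26.5 CPM. HS2ST1, which sulfates heparan sulfate, was at 459 to 197 CPM. In the cytoskeleton list TUBB3, a tubulin typical of neurons, was lower at 315 to 151 CPM.

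Noncoding RNA supplied the largest gain of all in CPM. H19, an imprinted RNA of the IGF2 locus, went from 533 to 4027 CPM, a ratio of 7.55. GAS5, host of small nucleolar RNAs, was higher at 106 to 274 CPM and DANCR, also a small nucleolar RNA host, lower at 24.1 to 11.5 CPM. UCA1 was at 119 to 60.7 CPM, under the limit. The 15 largest gains held 14.4% of all gains in CPM and the 15 largest losses 12.2% of all losses.

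Genes nearest the limit show how close the counts are to it. Just inside on the higher side were MLXIPL (0.829 to 2.66 CPM), MOCOS (9.92 to 20.9 CPM), AMN (8.78 to 18.6 CPM) and JAG2, and just outside were YARS, ANK2 (1.32 to 3.63 CPM), POU2F3 (2.901 to 6.798 CPM), SMIM19 (6.51 to 14.01 CPM) and MID1IP1 (57.5 to 116 CPM). On the lower side POP1 (27.6 to 13.1 CPM), RGS5 (36.5 to 17.5 CPM), ADI1 (109.9 to 53.97 CPM), DANCR and HSP90AA1 were just inside, and CCDC86 (38.9 to 18.96 CPM), PSG6 (1.78 to 0.393 CPM), DGKG (6.07 to 2.54 CPM), ATP5E (3.66 to 1.34 CPM) and HMGN3 (80.6 to 40.05 CPM) just outside.

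Set beside MKN74, where 3.26% of 11914 genes were higher and 1.35% lower against that line's own control, most genes called in AGS were within 2-fold. Of 10766 genes measured in both lines, 359 were higher and 50 lower in AGS, and 254 were higher and 99 lower in MKN74. Overlaps are to be read beside these counts. Of the 359 higher in AGS, 297 were within 2-fold in MKN74. In both lines 37 were higher, 10.3% of the AGS set and 14.6% of the MKN74 set. A further 25 were higher in AGS and lower in MKN74, 6.96% of the AGS higher set and 25.3% of the MKN74 lower set. Of the 50 lower in AGS, 1 was lower and 5 were higher in MKN74. The MKN74 change was 3.25 for ONECUT2 and 5.55 for ACSL5, against 1.84 and 2.24 in AGS. The stress genes had MKN74 changes of -0.49 at DDIT4, 0.12 at ASNS, -0.17 at CHAC1 and -0.26 at PSAT1, and in the ATF4 list 1 gene was higher there, with a median of 0.062. That gene was GDF15, at 3.55. The mitotic list had a median of -0.12 in MKN74, the ribosome biogenesis list -0.14 and the proteasome list 0.0068. Whether the lines differ was not tested, since each has 1 library per side.

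**Figure D5:**
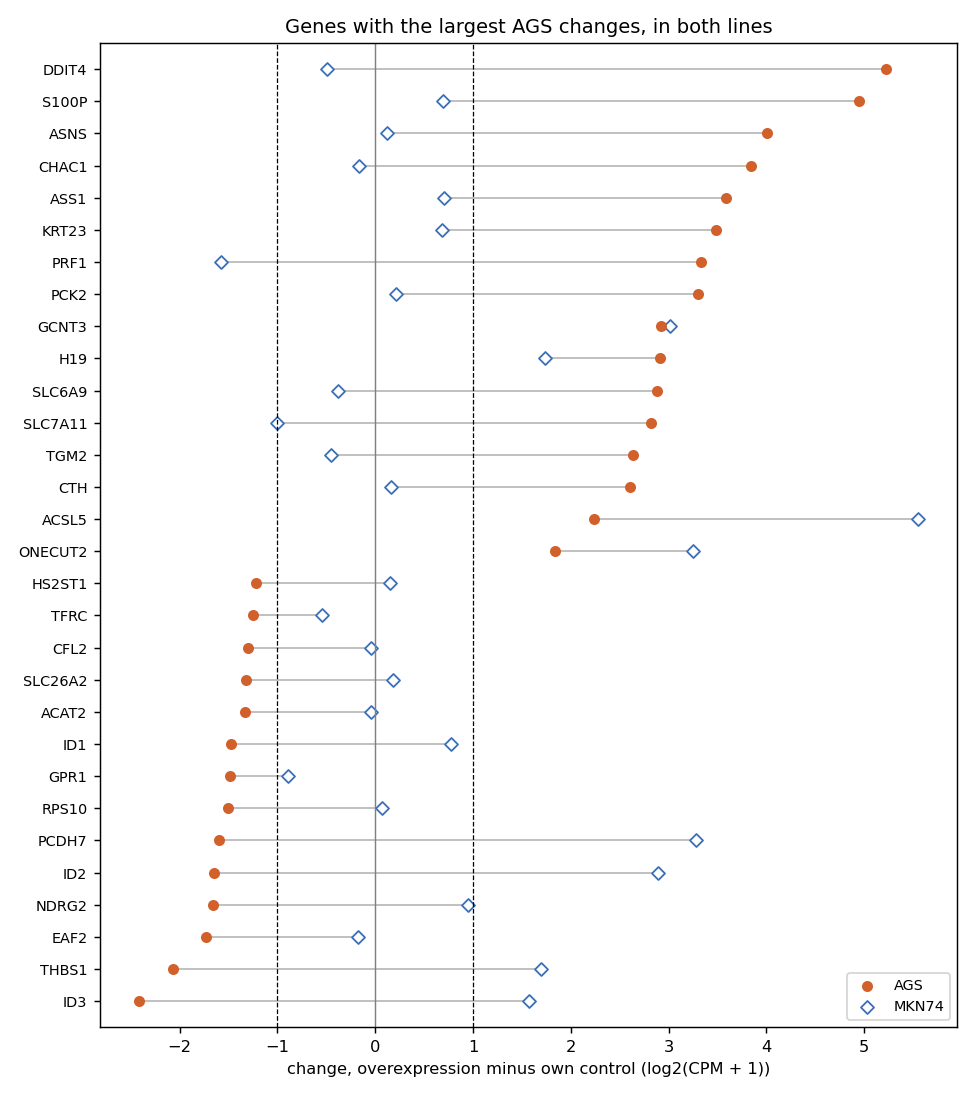
Change (log2(CPM + 1), overexpression minus the line's own control) in AGS (filled circle) and MKN74 (open diamond) for 30 genes, ONECUT2, ACSL5 and those of the largest AGS changes that average at least 1 CPM in MKN74, with dashed lines at 2-fold. In MKN74 4 of them pass 2-fold in the AGS direction, 6 in the other direction, and 20 lie within 2-fold.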

How the data were processed

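RNA sequencing libraries of AGS and MKN74 were used, 1 per group, grouped by the title labels, and the 8 ChIP samples were not used here. Libraries, per the labels' protocols, came from the TruSeq RNA kit. Tools in the submitters' processing notes are STAR 2.5.1, edgeR 3.12.1, HOMER 4.9.1, Bowtie2 2.1.0 and CASAVA 1.7, beside the build hg19. With the counter and its use of strand not given in the sources used here, overlapping, antisense and near-identical genes are uncertain.

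The authors deposited log2 values, which by their steps are log2(CPM + 1). Whole reads were recovered from them at 0.0244 CPM per read in the AGS control and 0.0231 in overexpression. No molecular identifiers are described, so reads may not be independent, and intervals (Clopper-Pearson, conditional binomial) cover counting error only. No count test was possible with 1 library per side. The 18 date-named rows were left out.

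Members and 68 gene lists were chosen with earlier results of these data known. Named were ONECUT2, ACSL5, the 25 largest increases and decreases among genes averaging 5 CPM or more, the 10 largest each way from 100 CPM, the 15 largest gains and losses in CPM, up to 6 members per list and any whose role was needed, and the 5 genes each side of the 2-fold limit, and a few genes that meet these rules are not reported here. Alternatives were other pseudocounts, filters, scalings and fold sizes. The steps were tested on simulated data. Work was done with scipy 1.17.1, pandas 2.3.3, numpy 2.4.6 and matplotlib 3.10.9 in Python 3.11.15.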

Additional observations from a re-analysis of the deposited data

Results flagged for a closer look

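For 13 of 429 named genes the change in the MKN74 libraries was at least 2-fold in the direction opposite to that in AGS. Over all 10766 genes measured in both lines, 25 were higher in AGS and lower in MKN74, and 5 were the reverse. The pairs below are of the 13 named genes only. The differences between the lines were not tested, since each line has 1 library per side. Genes lower in AGS but higher in MKN74 were ID3 (-2.41 and 1.57), THBS1 (-2.07 and 1.699), ID2 (-1.65 and 2.90) and PCDH7 (-1.60 and 3.28). Genes higher in AGS but lower in MKN74 were the kallikreins KLK6 (1.35 and -1.29) and KLK8 (1.88 and -1.15), PHLDA1 (1.35 and -1.14), KRT6A (1.55 and -1.52), COL17A1 (2.28 and -1.03), ABCC3 (1.78 and -1.74), HPGD (2.01 and -2.39), SLC7A11 (2.82 and -1.01) and PRF1 (3.33 and -1.58). The first value of each pair is the AGS change and the second the MKN74 change, both in log2(CPM + 1) against the line's own control.

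The 18 rows named by a date, which belong in no comparison because the genes behind them are not named, held 1980 CPM in the AGS overexpression library and 2108 CPM in its control.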

How the results depend on the processing

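No paired analysis was possible because each group has 1 library. No test was run, so the alternatives move counts and values only. The 489 higher and 85 lower genes became 359 and 60 with a pseudocount of 2, 667 and 125 with 0.1, 506 and 86 without a filter, 329 and 62 above an average of 5 CPM, 496 and 85 at a common median, 387 and 122 with quantile normalization and 599 and 76 over recovered reads. At 1.5-fold they were 1313 and 669, so 66.2% were higher in place of 85.2%, and at 4-fold 64 and 7. ONECUT2 ranged from 1.67 to 2.04 and ACSL5 from 2.13 to 2.35. The cause of these shifts was not tested beyond the construction of each setting. With the same filter of 5 CPM the median of the CEACAM and PSG list went from -0.19 to 1.95 and that of the immune markers from -0.12 to 0.33, as fewer members were left. Of 429 named genes 0 reversed, and of 185 past 2-fold 15 left it with quantile normalization and 22 with a pseudocount of 2. Sizes shifted even where the sign held, so small changes of abundant genes depend on the scaling. With quantile normalization ACTG1 went from -0.76 to -0.41, ACTB from -0.20 to 0 and ACTN4 from 0.54 to 0.68.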
